A study of Mus musculus with 9 samples.

Results

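H3K27ac was compared between mature adipocytes that carried an adipocyte Ets1 knock-in, EA+/+, and those of their controls, EC+/+. The members were every H3K27ac peak deposited for the 2 genotypes, 38484 in EA+/+ and 33713 in EC+/+. These 72197 peaks were part of 454996 in the 9 peak lists of the series. A peak was shared when it overlapped a peak of the other list by at least 1 bp, and otherwise it was called alone. Promoter peaks overlapped a window of 1 kb on each side of a transcription start site (TSS) of a protein-coding gene, and every other peak was called distal.

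Both groups carried the same knock-in allele in homozygous form, a cassette at the Hipp11 locus that holds the mouse Ets1 coding sequence and EGFP behind a stop flanked by loxP sites. EA+/+ mice also carried Adipoq-cre, which removes the stop in cells that express adiponectin. EC+/+ mice were littermates without Cre, so Cre itself differed between the groups as well, and Cre and Ets1 cannot be told apart. The mice were males of 8 to 10 weeks on C57BL/6J, and the adipocytes were the floating cells of collagenase-digested inguinal white fat. H3K27ac was profiled by CUT&Tag, in which an antibody directs a transposase to tag nearby DNA. There was 1 library per genotype, so no difference between genotypes could be tested. Intervals in brackets are 95% Wilson intervals of a share, which cover counting error only. Peak lists do not hold the depth of a library, and the study's reporting summary lists more reads for EA+/+ than for EC+/+.

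H3K27ac is an acetyl group on histone H3 that is placed by the acetyltransferases CBP and p300 and removed by histone deacetylases. At promoters it accompanies active transcription over a wide range of genes and cell types. At distal sites it marks active enhancers, and these differ more between cell types than promoters do. Ets1 is a transcription factor of the ETS family, which reads the letters GGAA, and it can bind both acetyltransferases and deacetylases. In adipocytes, enhancers are held by factors such as PPARG and C/EBP proteins.

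The sequences below show what lay under the summits of promoter peaks, the positions of highest signal. Each is 120 bases of GRCm38 centred on a summit, given 5′ to 3′ on the forward strand. Timm9 and Smo are from the strongest promoter peaks in EA+/+ alone, Gsr and Etaa1 from those in EC+/+ alone, and Mmadhc and Hdac2 from promoters with strong peaks in both lists. Capitals mark a match to GCGCANGC, the site of the factor NRF1.
Timm9, chr12:71136571-71136690: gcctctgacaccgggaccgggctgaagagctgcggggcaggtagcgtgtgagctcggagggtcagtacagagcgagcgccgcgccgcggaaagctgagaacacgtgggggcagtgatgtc
Smo, chr6:29736152-29736271: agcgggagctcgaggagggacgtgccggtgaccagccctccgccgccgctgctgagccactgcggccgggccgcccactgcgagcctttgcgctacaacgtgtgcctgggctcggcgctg
Gsr, chr8:33653922-33654041: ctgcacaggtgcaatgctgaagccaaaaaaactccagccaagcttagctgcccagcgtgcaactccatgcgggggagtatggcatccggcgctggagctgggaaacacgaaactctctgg
Etaa1, chr11:17953735-17953854: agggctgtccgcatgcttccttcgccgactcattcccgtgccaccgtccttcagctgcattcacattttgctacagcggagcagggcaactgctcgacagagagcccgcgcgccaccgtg
Mmadhc, chr2:50296493-50296612: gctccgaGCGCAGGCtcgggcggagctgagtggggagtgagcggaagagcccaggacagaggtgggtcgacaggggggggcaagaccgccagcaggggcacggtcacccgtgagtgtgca
Hdac2, chr10:36974263-36974382: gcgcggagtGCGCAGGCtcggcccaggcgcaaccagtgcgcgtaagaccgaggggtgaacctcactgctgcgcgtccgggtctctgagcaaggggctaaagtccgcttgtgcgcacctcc
All 6 windows were rich in GC, from 57.5% at Gsr to 74.2% at Smo, and held from 5 CpG to 15, and none was repeat-masked in the reference. The NRF1 letters stood at Mmadhc and at Hdac2. They were absent from the windows, not shown, of Sfi1, Slc45a1, Cops5 and Hjurp, the other promoters highest in both lists. The windows shown were picked from a longer set, in which those of Ifi44l and Slc45a1 were repeat-masked over 100%. None of the 6 windows shown held CGGAAGT, the core of an ETS site with a CpG, on either strand.

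A further set shows the summits of the strongest distal peaks found in a single list. Trpm1 and Dis3 are named for the nearest gene of EA+/+ peaks, and Cd200, Rtn4rl1 and Fggy for that of EC+/+ peaks. Capitals mark TTGCNNAA, the letters of a C/EBP site.
Trpm1, chr7:64078939-64079058: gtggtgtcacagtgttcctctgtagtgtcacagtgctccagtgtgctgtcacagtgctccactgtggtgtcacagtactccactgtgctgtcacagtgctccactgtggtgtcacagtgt
Dis3, chr14:99070712-99070831: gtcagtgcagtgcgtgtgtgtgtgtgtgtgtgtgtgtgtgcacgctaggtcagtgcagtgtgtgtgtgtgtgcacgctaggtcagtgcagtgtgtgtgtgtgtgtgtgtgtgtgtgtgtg
Cd200, chr16:45352968-45353087: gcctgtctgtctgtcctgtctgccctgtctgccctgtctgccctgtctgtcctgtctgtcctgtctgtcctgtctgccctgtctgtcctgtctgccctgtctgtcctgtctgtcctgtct
Rtn4rl1, chr11:75212178-75212297: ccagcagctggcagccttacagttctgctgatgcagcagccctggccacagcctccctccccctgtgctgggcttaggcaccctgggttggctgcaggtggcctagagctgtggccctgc
Fggy, chr4:95483663-95483782: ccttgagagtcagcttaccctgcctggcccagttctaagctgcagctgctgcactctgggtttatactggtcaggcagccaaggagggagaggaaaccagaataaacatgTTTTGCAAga
The Dis3 window consisted largely of TG runs, and the Trpm1 window of a longer unit repeated in tandem. The Cd200 window from EC+/+ was also a tandem repeat, and the second strongest EC+/+ peak, near Sfi1 and not shown, was repeat-masked over 81.7% of its window. The Rtn4rl1 window had no repeat-masked base and the Fggy window carried a C/EBP match.

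Promoter peaks were mostly common to both genotypes and distal peaks were mostly not. Of 12617 promoter peaks in EA+/+, 3782 were alone, or 30.0% [29.2, 30.8]. Of 13166 in EC+/+, 4268 were alone, or 32.4% [31.6, 33.2]. Of 25867 distal peaks in EA+/+, 19561 were alone, or 75.6% [75.1, 76.1], and of 20547 in EC+/+, 14224, or 69.2% [68.6, 69.9]. Exons, introns and intergenic sequence were alike in this: in EA+/+ 72.3%, 76.6% and 75.6% of their peaks were alone, and in EC+/+ 68.1%, 70.6% and 67.8%. The EA+/+ list, the longer of the 2, thus held more distal peaks and fewer promoter peaks than the EC+/+ list.

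Equal numbers of best peaks were compared by keeping the 33713 EA+/+ peaks of highest −log10 q, the significance given by the peak caller. Then 57.25% of EA+/+ peaks and 56.9% of EC+/+ peaks were alone. The order at promoters stayed, with 27.6% alone in EA+/+ and 34.3% in EC+/+. At distal sites the shares drew together, to 73.3% and 71.4%.

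Overlap followed the strength of a peak. In the bottom 10% of each list by −log10 q, 33.4% of EA+/+ promoter peaks and 24.6% of EC+/+ promoter peaks were shared, and in the top 10% 96.2% and 96.5%. Distal peaks rose from 11.2% to 75.8% in EA+/+ and from 14.6% to 92.3% in EC+/+. The list was cut over promoter and distal peaks together, so its top 10% held 1108 distal peaks in EA+/+ and 621 in EC+/+. These were shared less in EA+/+, with intervals of 73.2 to 78.2% against 89.9 to 94.1%, but they began at a −log10 q of 7.10 in EA+/+ and 8.95 in EC+/+. At 10 or more in each list, 11.3% of EA+/+ and 5.00% of EC+/+ distal peaks were alone. Outside repeats, described below, these were 6.93% [4.31, 10.95] and 5.54% [3.49, 8.69]. Peaks found alone were weaker and narrower. Their median −log10 q was 2.67 in EA+/+ and 3.06 in EC+/+, against 4.56 and 5.14 for shared peaks, and their median width was 226 and 225 bp, against 382 and 386 bp.

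**Figure D1:**
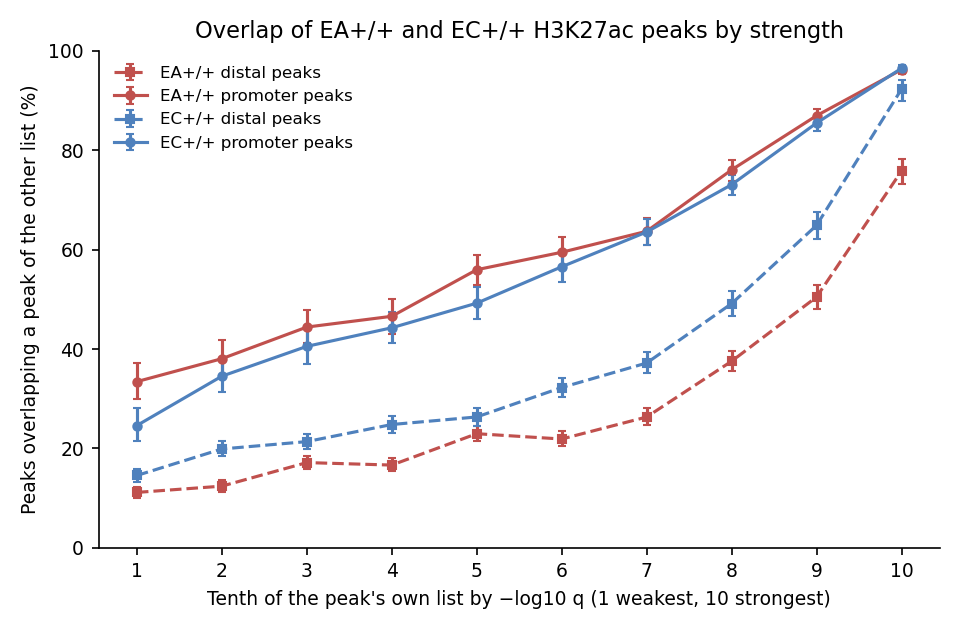
Share of H3K27ac peaks (%) with a partner in the other genotype, by 10 equal parts of each list ranked on −log10 q; circles and full lines are promoter peaks, squares and dashed lines distal peaks, and bars are 95% Wilson intervals. Promoter peaks reach 96.2% and 96.5% in the strongest part, and distal peaks 75.8% in EA+/+ and 92.3% in EC+/+.

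Repeats were more frequent at the summits of distal peaks in EA+/+ alone than of those in EC+/+ alone, but most of these peaks lay outside repeats. A summit was called repeat-masked when 50% or more of the 200 bases around it were soft-masked in the reference. Among distal peaks found alone, 17.2% of EA+/+ summits [16.7, 17.7] and 9.86% of EC+/+ summits [9.38, 10.4] were repeat-masked, against 18.05% and 17.9% among shared distal peaks. With a −log10 q of 5 or more the shares were 33.4% of 1286 in EA+/+ and 13.6% of 1184 in EC+/+. At 10 or more they were 69.8% of 53 and 29.2% of 24, with intervals of 56.5 to 80.5% and 14.9 to 49.2%. The share rose with strength among shared distal peaks too. There it was 29.5% in EA+/+ and 22.9% in EC+/+ at 5 or more, and 48.3% and 36.4% at 10 or more. At least 10 copies of TG in a row, on either strand, stood in 18.3% of the 1286 EA+/+ windows and in 7.26% of the 1184 EC+/+ windows. At promoters found alone, 2.54% and 1.57% of summits were repeat-masked. Outside repeats the distal peaks of −log10 q 5 or more were alone as often in EA+/+, 857 of 2150 or 39.9%, as in EC+/+, 1023 of 2583 or 39.6%, with intervals of 37.8 to 42.0% and 37.7 to 41.5%. With the repeats kept, the shares were 41.2% and 36.9%. Over distal peaks of any strength a gap stayed when repeat-masked summits were left out of both lists, with 76.5% alone in EA+/+ and 72.0% in EC+/+. Reads in repeats can map to several places. The study made its signal tracks from uniquely mapped reads, and whether its peaks were called on the same reads is not stated.

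**Figure D2:**
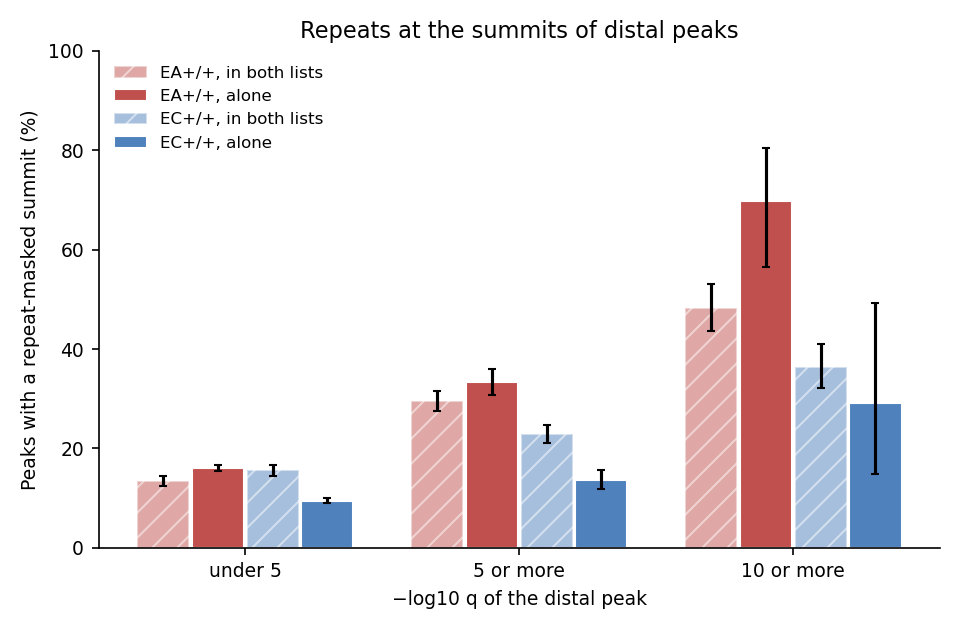
Share of distal H3K27ac peaks (%) whose summit window was repeat-masked, by −log10 q; filled bars are peaks found in a single list, hatched bars shared peaks, and error bars 95% Wilson intervals. Peaks of 10 or more in EA+/+ alone stand at 69.8% and those in EC+/+ alone at 29.2%, the latter from 24 peaks. Shared peaks of 10 or more stand at 48.3% in EA+/+ and 36.4% in EC+/+.

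The strongest distal peaks are named for the nearest TSS of a protein-coding gene. Those described in EA+/+ alone were intergenic peaks 74.8 kb from Trpm1 with a −log10 q of 39.9 and 23.5 kb from Rec114 with 34.2, and intronic peaks 143 kb from Tcte2 with 28.0 and 7.91 kb from Dis3 with 23.6. The 120 bases around each of these 4 summits were repeat-masked by 88.3 to 100%, and 3 of the 4 peaks also overlapped an Ets1 peak of room-temperature adipocytes. The highest in EC+/+ alone were 24.1, 47.3 kb from Cd200, and 24.0, 32.0 kb from Sfi1, then 16.5, 263 kb from Mc2r, 14.4 in an intron 18.5 kb from Rtn4rl1 and 13.0 in an exon 73.8 kb from Fggy. The windows at Cd200 and Sfi1 were repeat-masked by 87.5% and 81.7%, that at Fggy by 19.2%. The first 3 of these 5 peaks overlapped an Ets1 peak at room temperature. The Rtn4rl1 peak, chr11:75212113-75212531, was also a peak in EAKO H3K27ac, and the Fggy peak, chr4:95483551-95484003, in Flox and EAKO H3K27ac. Among shared distal peaks the 5 highest in EA+/+ lay near Tcte2, which had 2 of them, Gm525, Rpusd4 and Tmem196, with values from 806 to 2948. All 5 overlapped peaks of all 7 other libraries, and the 120 bases around each of these 5 summits were repeat-masked over 100%.

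By gene, 9450 of 21938 protein-coding genes, or 43.1%, had a promoter peak in both genotypes. EA+/+ alone had one at 1608 genes, 7.33% of all, and EC+/+ alone at 1950, 8.89% of all. With equal numbers of best peaks the counts were 1427 and 2191. A stricter rule asked for a −log10 q of 5 or more with no peak of the other list within 5 kb, and was chosen after the values were seen. It kept 189 genes in EA+/+, 0.862% of all, and 412 in EC+/+, 1.88% of all. Flox had a promoter H3K27ac peak at 169 of the 189 genes, or 89.4%, and at 393 of the 412, or 95.4%. Over all 21938 genes it had one at 14015.

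Among the strongest promoter peaks in EA+/+ alone was that of Timm9, a chaperone for import into the mitochondrial inner membrane, with a −log10 q of 13.2. Fmo5, a flavin monooxygenase, followed with 12.5, then the interferon-induced gene Ifi44l with 12.3, the calmodulin-dependent kinase gene Camk4 with 12.0 and Smo, the Hedgehog signal transducer, with 11.8. All 5 also had promoter H3K27ac peaks in Flox and in EAKO, the floxed controls and adipocyte Ets1 knock-outs of the series. No EC+/+ peak stood within 5 kb of any of these 5 peaks. The Ifi44l summit was a TG run, repeat-masked over 100% of the 120 bases around it.

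In EC+/+ alone the order was Itm2a with a −log10 q of 15.3, Gsr, which encodes glutathione reductase, with 14.3, and the zinc finger gene Zkscan7 with 13.2. Boll, a germ cell RNA-binding protein, and Etaa1, an activator of the ATR kinase, both had 13.0, and Fbxo11, the substrate receptor of a ubiquitin ligase, had 12.4. The Zkscan7 peak itself overlapped an EA+/+ peak that did not reach the 1 kb window, and with windows of 3 kb the gene was in both lists. Boll had no promoter peak in Flox or EAKO. Etaa1 and Fbxo11 were strong there, with 45.7 and 51.4 in Flox and 32.6 and 56.4 in EAKO.

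Promoters with the highest ranks in both lists were Sfi1, Slc45a1, Mmadhc, Hdac2, Cops5 and Hjurp. The percentile rank of a peak within its own list was used here, since −log10 q depends on the library. At Mmadhc, a gene of vitamin B12 metabolism, −log10 q was 34.0 in EA+/+ and 34.9 in EC+/+, and at the deacetylase gene Hdac2 29.5 and 43.2. Cops5, the catalytic subunit of the COP9 signalosome, shares its peak with Cspp1 and had 29.4 and 31.6. Hjurp, a chaperone of the centromeric histone, shares its peak with Trpm8 and had 28.9 and 48.7. Sfi1 and Slc45a1 had 71.6 and 79.3 in EA+/+ and 61.7 and 40.5 in EC+/+, and their summits were tandem repeats.

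Across the 9450 genes with a promoter peak in both lists, the median percentile rank was 81.6 in EA+/+ and 82.4 in EC+/+. The difference of ranks, EA+/+ minus EC+/+, had a median of −0.502 points, with 10th and 90th percentiles of −32.1 and 28.6 points. The strongest promoter peaks of a gene in the 2 lists need not be the same peak, and they overlapped at 7856 of these genes, or 83.1%. A gap of over 50 points was seen at 302 genes in favour of EA+/+ and at 356 in favour of EC+/+, and among genes whose peaks overlapped at 216 and 259. Among genes at or above the 95th percentile in either list, the largest gaps toward EC+/+ were at Zfp692, Slc41a3, which belongs to a family of magnesium transporters, and Fdft1, the squalene synthase gene. Slc41a3 ranked 98.7 in EC+/+ and 17.4 in EA+/+, but its peaks in the 2 lists did not overlap. Fdft1, with overlapping peaks, ranked 95.3 and 16.2. Toward EA+/+ they were at Polb, the base excision repair polymerase, with ranks of 95.7 in EA+/+ and 19.04 in EC+/+, and at Mipol1 and Prps1l3, which share 1 peak. These genes were chosen after their values were seen.

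Summits of shared promoter peaks sat closer to a TSS than those of peaks found alone. Within 100 bp of the TSS lay 39.2% of shared and 24.0% of alone summits in EA+/+, and 42.2% and 29.3% in EC+/+. The median distance was 149 and 270 bp in EA+/+ and 138 and 234 bp in EC+/+. Summits over 100 bp away were more often downstream of the TSS than upstream in every class, by 48.7% to 27.4% for EA+/+ alone and by 43.7% to 26.99% for EC+/+ alone.

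The other libraries of the series were read at the same peaks. They came from other mice, and no step of the peak rule had used them. Of shared EA+/+ promoter peaks, 94.0% overlapped a Flox H3K27ac peak. Of promoter peaks in EA+/+ alone 56.0% did [54.4, 57.6], and of those in EC+/+ alone 68.0% [66.5, 69.3]. Distal peaks gave 67.6% when shared, 28.9% [28.3, 29.5] in EA+/+ alone and 35.3% [34.6, 36.1] in EC+/+ alone. Open chromatin by ATAC in Flox adipocytes covered 54.9% of promoter and 14.8% of distal peaks in EA+/+ alone, and 67.8% and 22.2% in EC+/+ alone. In each of these readings the class in EC+/+ alone was held more often, and the intervals did not overlap.

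The same order was seen among peaks of −log10 q 5 or more. Flox H3K27ac held 75.2% of 420 such promoter peaks in EA+/+ alone and 89.2% of 858 in EC+/+ alone, and 46.7% of 1286 and 55.6% of 1184 distal ones. Flox ATAC held 16.9% of these distal peaks in EA+/+ alone and 37.5% in EC+/+ alone. By ATAC the order was the same within repeat-masked summits and within the others. For distal peaks in EA+/+ alone, Flox ATAC held 5.89% of repeat-masked summits and 16.6% of others, and for EC+/+ alone 8.92% and 23.6%. By Flox H3K27ac the intervals of repeat-masked summits overlapped, with 24.5% [23.1, 26.0] in EA+/+ alone and 26.2% [23.9, 28.5] in EC+/+ alone, whereas the others gave 29.8% [29.1, 30.5] and 36.3% [35.5, 37.2]. Neither Flox nor EAKO H3K27ac held 64.0% of distal peaks in EA+/+ alone and 57.0% of those in EC+/+ alone.

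Ets1 peaks overlapped the shared class most. CS adipocytes, from mice kept in the cold, had an Ets1 peak at 50.4% of shared EA+/+ promoter peaks, at 14.1% of those in EA+/+ alone [13.1, 15.3] and at 19.3% of those in EC+/+ alone [18.1, 20.5]. Cultured beige adipocytes had one at 62.2%, 22.4% and 30.7%. Distal peaks of EA+/+ alone held a CS Ets1 peak in 4.80% [4.51, 5.11] and those of EC+/+ alone in 4.36% [4.04, 4.71], and shared ones in 23.7%. RT adipocytes, from mice kept at room temperature, had an Ets1 peak at 2.16% of distal peaks in EA+/+ alone and 1.29% of those in EC+/+ alone. Among the repeat-masked ones these were 7.79% and 5.42%, and among the rest 0.994% [0.852, 1.16] and 0.835% [0.691, 1.01].

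**Figure D3:**
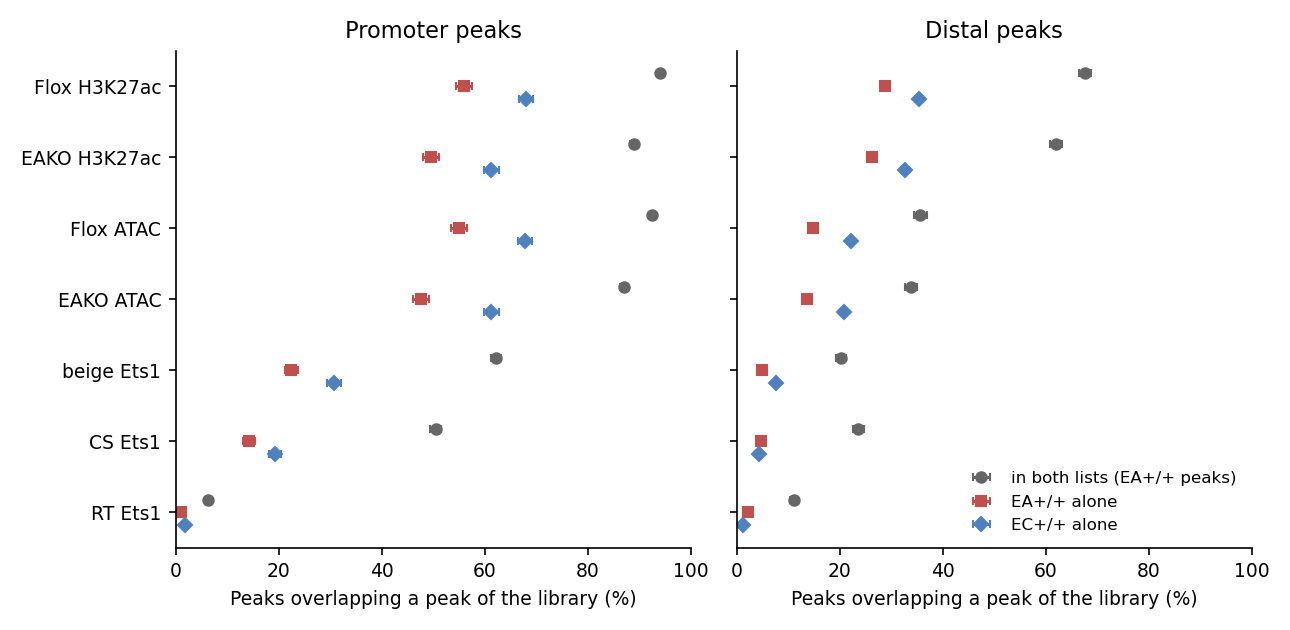
Share of peaks in each class (%) that overlap a peak of the 7 other libraries, promoter peaks on the left and distal peaks on the right; points are shares and bars 95% Wilson intervals. Peaks of EC+/+ alone lie to the right of those of EA+/+ alone for H3K27ac and ATAC, and shared peaks lie to the right of both, up to 94.0% of promoter peaks in Flox H3K27ac.

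Base composition followed the classes. The 200 bases at promoter summits had a mean GC of 65.3% and 7.77 CpG per 100 bp for shared EA+/+ peaks, 60.5% and 5.00 for EA+/+ alone, and 61.0% and 5.27 for EC+/+ alone. The ETS core with a CpG, CGGAAGT on either strand, was in 4.75% of shared EA+/+ promoter windows [4.33, 5.22]. It was in 2.27% of those in EA+/+ alone [1.85, 2.80] and in 3.40% of those in EC+/+ alone [2.89, 3.98]. All 200 bp windows at the TSSs of protein-coding genes held it in 5.84%. The same letters in reversed order, TGAAGGC, were in 3.12%, 3.83% and 3.30%. Since the core holds a CpG, windows were also split into 3 classes by CpG, with bounds of 5 and 9 per 100 bp. In the middle class, 2.14% of windows in EA+/+ alone [1.37, 3.31] and 5.41% of those in EC+/+ alone [4.30, 6.79] held the core. In the low class 1.64% [1.18, 2.27] and 1.52% [1.09, 2.13] held it, and in the high class 4.24% [3.02, 5.93] and 5.21% [3.89, 6.94]. The NRF1 letters GCGCANGC were in 11.1% of shared EA+/+ promoter windows, 5.53% in EA+/+ alone, 6.42% in EC+/+ alone and 8.41% at all TSSs.

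At distal summits the letters of adipocyte and AP-1 factors were counted in the same way. TTGCNNAA for C/EBP was in 4.71% of windows in EA+/+ alone and 5.15% of those in EC+/+ alone, and in 3.52% of shared EA+/+ windows. TGANTCA for AP-1 was in 5.63%, 6.24% and 5.09%, and TTGGCA, from the NFI site, in 9.80%, 10.9% and 8.52%. Among peaks found alone with a −log10 q of 5 or more, C/EBP letters were in 2.57% of EA+/+ and 4.22% of EC+/+ windows, and NFI letters in 6.69% and 10.4%. In that class more EA+/+ than EC+/+ summits were repeat-masked, as given above, and the part of this in the difference was not tested. The ETS letters without a CpG, AGGAAGT, were in 5.07%, 6.04% and 5.14%. For PPARG, copies of AGGTCA in the same direction 1 base apart were in under 1% of windows in every class. CACGTG, the E-box, was in 4.33% and 4.06% of windows alone, and AGGNGGC, part of the CTCF site, in 15.6% and 17.2%.

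Distal peaks were then counted for the nearest protein-coding TSS within 100 kb. EA+/+ had 22954 and EC+/+ 18465, a ratio of 1.24 in favour of EA+/+, and with equal numbers of best peaks 1.05. EA+/+ was higher by 3 peaks or more at 825 genes, 3.76% of all, and EC+/+ at 301, 1.37% of all. With equal numbers these were 482 and 435 genes.

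The largest excess in EA+/+ was at Hrh1, the histamine H1 receptor gene, with 18 distal peaks against 8. Without repeat-masked summits 8 and 6 peaks were left. Cd47, whose product tells macrophages not to engulf a cell, had 11 against 2, and no EA+/+ or EC+/+ peak there was lost with the repeats. Coro2b, a coronin that binds actin, had 13 against 4 and kept 12 and 4. Pard3, a cell polarity gene, had 12 against 3, Jazf1 13 against 5, and Lrmda 11 against 3, and without repeats they had 8 and 3, 10 and 4, and 9 and 3. With equal numbers of best peaks the excess shrank to 4 peaks at Cd47, 4 at Lrmda, 5 at Coro2b, 6 at Jazf1 and 7 at Pard3, and stayed at 9 at Hrh1. Flox and EAKO had 12 and 11 peaks at Hrh1, 17 and 13 at Cd47, 19 and 18 at Coro2b, 30 and 32 at Pard3, 15 and 14 at Jazf1, and 14 and 10 at Lrmda. By this count EA+/+ exceeded both at Hrh1, although the Flox and EAKO lists are the longer ones. Its 8 peaks outside repeats did not exceed these counts, in which Flox and EAKO kept their repeats. Within 100 kb of the start of Hrh1, Flox and EAKO had more peaks than EA+/+.

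Inpp5a, an inositol phosphate phosphatase gene, had 16 distal peaks in EC+/+ and 7 in EA+/+. Tbc1d8, of a family of Rab GTPase activators, had 11 and 2, Fam107b 13 and 5, and the alkaline phosphatase gene Alppl2 9 and 2. Chd7, a chromatin remodeller, had 15 and 9, and Gabbr2, a subunit of the GABA-B receptor, 11 and 5. All 6 stayed higher in EC+/+ with equal numbers of best peaks and without repeats. Flox and EAKO had 23 and 22 at Inpp5a and 8 and 6 at Tbc1d8. These genes were the extremes of 21938.

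**Figure D4:**
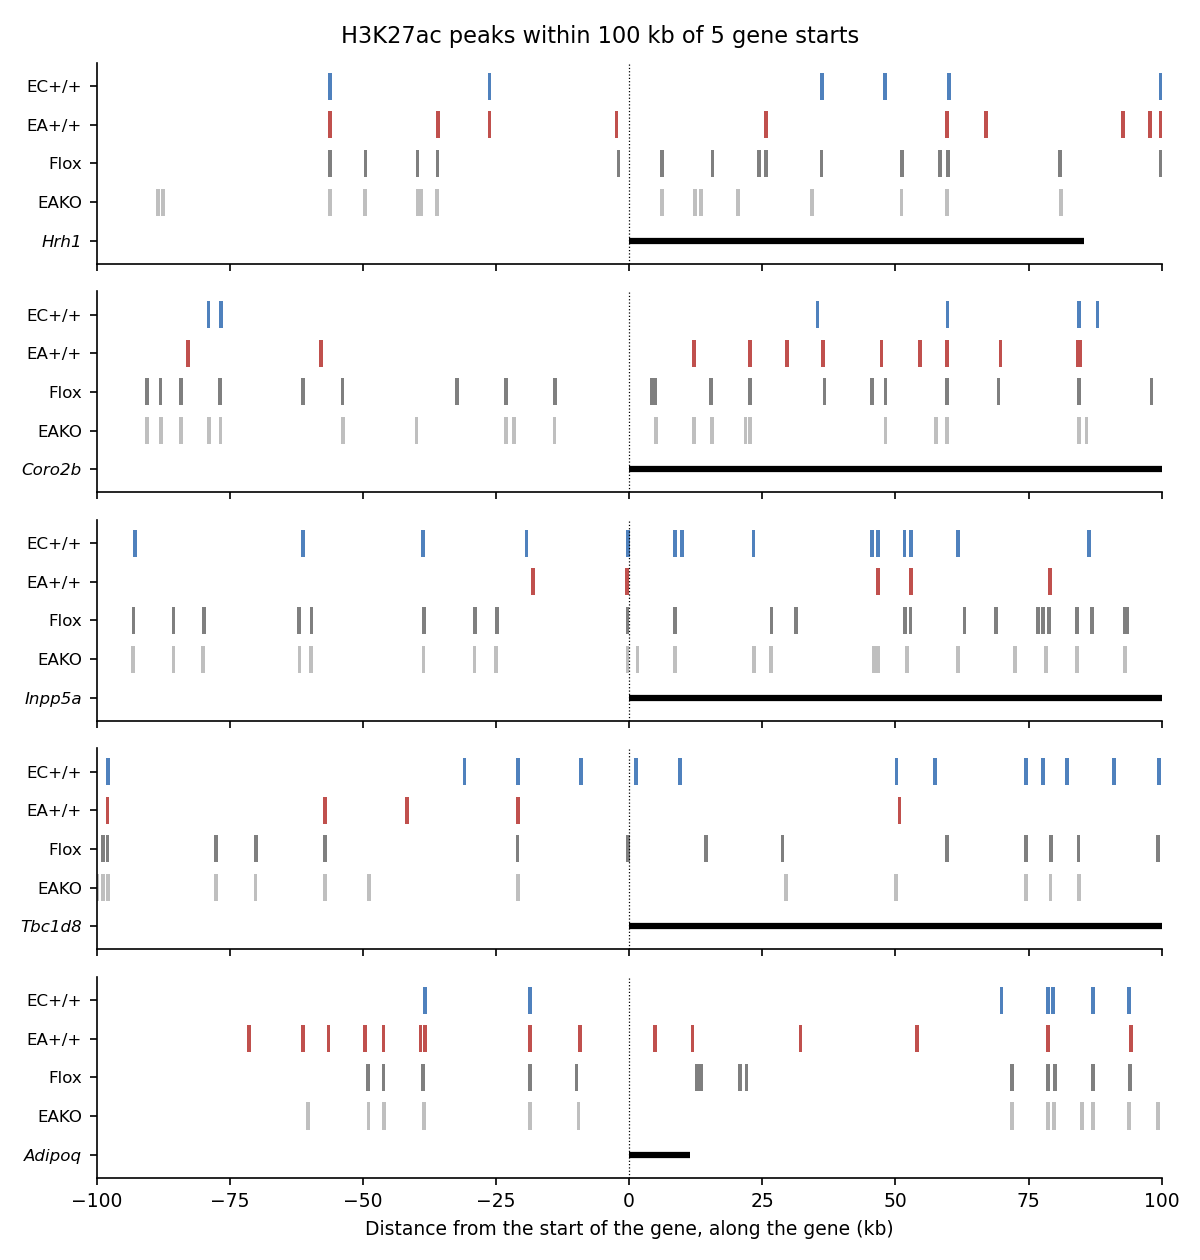
H3K27ac peaks within 100 kb of the start of Hrh1, Coro2b, Inpp5a, Tbc1d8 and Adipoq, with distance along the gene in kb; each mark is a peak, drawn 0.7 kb wide for visibility, rows are the 4 H3K27ac libraries and the black bar is the gene. EA+/+ has more marks than EC+/+ at Hrh1, Coro2b and Adipoq and fewer at Inpp5a and Tbc1d8. Flox and EAKO have many marks at all 5 genes, and more than EA+/+ at Hrh1.

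Gene lists were read against all genes, of which 50.4% had a promoter peak in EA+/+ and 52.0% in EC+/+. Of 40 adipocyte identity genes, 21 had one in both, 3 in EA+/+ alone and 5 in EC+/+ alone. In both were Pparg, the master regulator of the lineage, with a −log10 q of 11.7 in EA+/+ and 16.0 in EC+/+, Lpl, the lipoprotein lipase, with 8.31 and 6.85, and Plin1, which coats the lipid droplet, with 6.59 and 4.65. EA+/+ alone had Aqp7, the glycerol channel, with 5.86, Scd1 with 3.44 and Pnpla2, the first lipase of lipolysis, with 2.48. EC+/+ alone had Slc2a4, the insulin-responsive glucose transporter, with 6.05, the fatty acid transporter gene Cd36 with 4.62, Retn with 4.24 and Klf15 with 2.38. Neither list had a promoter peak at Adipoq, Fabp4, Cidec, Cfd or Adig, which are among the defining genes of the cell type. These shares of 7.50% and 12.5% stand beside 7.33% and 8.89% over all genes.

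At the loci of the cross itself, Adipoq had 4 distal peaks in EA+/+ and none in EC+/+, and 2 of the 4 were left without repeat-masked summits. Flox had 4 by the same count and EAKO none, but the count takes only peaks nearest to the Adipoq TSS. By position, an EAKO peak of 12.9 at −9.96 to −9.05 kb from the Adipoq start covered an EA+/+ peak of 4.18. One EA+/+ peak, chr16:23151237-23151433, lay in an intron of Adipoq. Over the endogenous Ets1 gene, chr9:32636221-32757820, a single EC+/+ peak touched a coding exon and no EA+/+ peak did. Reads from the inserted coding sequence would map to those exons. The promoter peak of Ets1 was present in both, with 3.79 in EA+/+ and 3.15 in EC+/+. Drg1 and Eif4enif1 flank Hipp11. Their annotated genes overlap, and over their span, chr11:3187360-3266415, each list had 6 peaks. Drg1 had a promoter peak in both lists, with 14.9 in EA+/+ and 19.5 in EC+/+, and Eif4enif1 in EC+/+ alone, with 5.59.

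Of 33 thermogenic genes 14 had a promoter peak in both, 6 in EA+/+ alone and 6 in EC+/+ alone, shares of 18.2% each beside the same 7.33% and 8.89%. EA+/+ alone had Dio2, the deiodinase that makes active thyroid hormone, with 5.64, Prdm16, a coregulator of the brown fat programme, with 4.32, Tbx1 with 3.58 and Cox8b with 3.29. EC+/+ alone had Tnfrsf9 with 5.86, Ppara with 4.56, Cited1 with 4.09 and Ppargc1a, the coactivator of mitochondrial biogenesis, with 3.42. Ucp1, the uncoupling protein of thermogenic fat, had neither a promoter nor a distal peak in the 2 lists. Distal peaks of the 33 genes numbered 72 and 70, a ratio of 1.03 against 1.24 over all genes. With equal numbers of best peaks the order turned, to 60 in EA+/+ and 70 in EC+/+, a ratio of 0.857 against 1.05 over all genes.

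Mitochondrial and autophagy genes had promoter peaks in both genotypes as a rule. The 10 autophagy genes and the 6 mitochondrial genes that the study names were in both lists without exception, but the study picked them from its own data, so they are not independent evidence. Atg4d, a protease that processes LC3, had a percentile rank of 81.1 in EA+/+ and 98.8 in EC+/+, with a −log10 q of 5.36 and 19.6, and Atg5, part of the LC3 conjugation machinery, ranks of 78.8 and 97.7. Atg16l2 ranked higher in EA+/+, 81.5 against 69.7. Atg2a, a lipid transfer protein, had ranks of 85.6 and 67.7, but from peaks that did not overlap, and the peaks of the kinase gene Ulk1 also lay apart. Of the 8 genes whose peaks overlapped, 1 ranked higher in EA+/+ and 7 in EC+/+. Tfam, the mitochondrial DNA packaging factor, ranked 86.2 in EA+/+ and 99.01 in EC+/+, the ATP synthase gene Atp5a1 92.2 and 72.6, and the 6 mitochondrial genes were split evenly, 3 and 3. Over all 9450 promoters 4505 ranked higher in EA+/+ and 4945 in EC+/+.

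Of 47 core autophagy genes 35 were in both, 2 in EA+/+ alone, Atg4a with 4.03 and Becn1 with 3.51, and 6 in EC+/+ alone, led by Map1lc3a with 5.35 and Nbr1 with 4.95. These shares of 4.26% and 12.8% stand beside 7.33% and 8.89% over all genes. Distal peaks of these genes numbered 84 in EA+/+ and 63 in EC+/+, a ratio of 1.33 against 1.24 over all genes, and 68 and 63 with equal numbers of best peaks. Of the 47 genes 4 were higher by 3 or more in EA+/+ and 0 in EC+/+, beside 3.76% and 1.37% of all genes. Those were Atg7 with 17 against 13, Uvrag with 13 against 8, Atg10 with 10 against 5 and Atg14 with 3 against 0. With equal numbers of best peaks only 1 of them, Atg10 with 9 against 5, kept a gap of 3. Without repeat-masked summits 3 of the 47 genes were higher by 3 or more in EA+/+ and 1 in EC+/+. Of 38 lysosomal and proton pump genes 27 were in both, 3 in EA+/+ alone and 4 in EC+/+ alone, among them the cathepsin gene Ctsl with 9.85. Their shares of 7.9% and 10.5% stand beside the same 7.33% and 8.89%. Distal peaks numbered 35 and 22, a ratio of 1.59 against 1.24 over all genes. With equal numbers they were 27 and 22, a ratio of 1.23 against 1.05.

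Of 78 oxidative phosphorylation genes 62 were in both, 7 in EA+/+ alone and 6 in EC+/+ alone. Those shares of 8.97% and 7.69% stand beside 7.33% and 8.89% over all genes, and their order turned to 7 and 8 with equal numbers of best peaks. Under the stricter rule 4 were in EA+/+ alone and 0 in EC+/+ alone, beside 0.862% and 1.88% of all genes. These 4 genes also had promoter H3K27ac peaks in Flox and in EAKO. The leading genes in EA+/+ alone were Ndufab1 with 9.63, Atp5k with 9.50, Ndufb3 with 6.50 and Ndufa9 with 6.32, and Ndufs7 led in EC+/+ alone with 4.36. Of 78 mitochondrial ribosome genes 59 were in both, 4 in EA+/+ alone, led by Mrps24 with 10.99, and 11 in EC+/+ alone, led by Mrpl54 with 6.37 and Mrps21 with 6.35. Cytosolic ribosome genes, 83 in all, gave 55, 9 and 10, with Rps18 at 9.80 in EC+/+ alone. Among 20 genes of mitochondrial biogenesis 13 were in both, 2 in EA+/+ alone, Gabpb1 with 5.45 and Nrf1 with 2.87, and 3 in EC+/+ alone. Fatty acid oxidation gave 21 in both of 25, with Cpt1b at 2.61 in EA+/+ alone and Ppara in EC+/+ alone. The shares in EA+/+ alone and in EC+/+ alone were 5.13% and 14.1% for the mitochondrial ribosome and 10.8% and 12.05% for the cytosolic ribosome. They were 10% and 15% for mitochondrial biogenesis and 4% and 4% for fatty acid oxidation, all beside 7.33% and 8.89% over all genes. Among the members in both, 15 of 21 fatty acid oxidation genes and 40 of 62 oxidative phosphorylation genes, or 37 of 59 whose peaks overlapped, ranked higher in EC+/+, among them Decr1, Echs1 and Etfdh. Over all genes 4945 of 9450 did. The median difference of ranks, EA+/+ minus EC+/+, was −4.14 points for fatty acid oxidation and −2.23 for oxidative phosphorylation, beside −0.502 over all genes. These lists were not set apart by a test, and the genes of a list share peaks and depth.

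Regulatory lists were mixed as well, and their shares in EA+/+ alone and in EC+/+ alone are to be read against 7.33% and 8.89% of all genes. Of 27 AP-1 and immediate early genes 13 were in both, 5 in EA+/+ alone, led by Klf6 with 5.58, and 7 in EC+/+ alone, led by Atf3 with 6.62. Of 26 ETS factor genes 15 were in both, 1 in EA+/+ alone, Elf5 with 2.89, and 5 in EC+/+ alone, led by Elf4 with 5.51. Insulin signalling genes, 25 in all, gave 18 in both, 1 in EA+/+ alone and 4 in EC+/+ alone. Their distal peaks numbered 84 in EA+/+ and 90 in EC+/+, a ratio of 0.933 against 1.24 over all genes. With equal numbers of best peaks they were 71 and 90, a ratio of 0.789 against 1.05. EA+/+ was higher by 3 peaks or more at 2 of the 25 genes and EC+/+ at 4, beside 3.76% and 1.37% of all genes. Among the 25, Rptor, of the mTOR complex, had 11 against 4 distal peaks, and Pik3r1, the regulatory subunit of PI3 kinase, 3 against 8. Of 20 clock genes 12, 3 and 2, of 43 ubiquitin E1 and E2 genes 24, 7 and 4, and of 28 writers and erasers of histone acetylation 19, 3 and 3 were in both, in EA+/+ alone and in EC+/+ alone. Of 32 interferon and inflammation genes 15 were in both, 7 in EA+/+ alone and 1 in EC+/+ alone, or 21.9% and 3.13%, and with equal numbers of best peaks 5 and 1. The 7 were Lcn2, Ifit1, Il1b, Irf7, Oas1a, Mx1 and Il6, with values from 1.42 to 2.90, all under the median of 3.29 for the EA+/+ list, and Stat2 in EC+/+ alone had 4.67.

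Cells other than adipocytes may remain in the floating layer, and promoter peaks at their markers were present in both lists. The counts below in EA+/+ alone and in EC+/+ alone are to be read against 7.33% and 8.89% of all genes. Distal totals are to be read against a ratio of 1.24 in favour of EA+/+ over all genes, or 1.05 with equal numbers of best peaks. The 23 markers of adipose stem and progenitor cells (ASPC) had 7 promoters in both, 3 in EA+/+ alone and 3 in EC+/+ alone, among them Pdgfra in both with 11.6 and 12.9 and Pi16 in EC+/+ alone with 5.96. Their distal peaks went the other way from all genes, with 18 in EA+/+ and 34 in EC+/+, and 16 and 31 without repeats. Of the 23, 10 had more in EC+/+, led by Col1a1 and Dlk1 with 4 against 1 each and Cd24a with 3 against 0, and 3 had more in EA+/+. Macrophage markers, 20 in all, had 5 promoters in both, 2 in EA+/+ alone, with Csf1r at 5.23, and 2 in EC+/+ alone, with Cd163 at 7.33, and 19 and 13 distal peaks. Endothelial markers, also 20, had 7, 2 and 1 promoters and 41 against 37 distal peaks, with Pecam1 at 9 against 2 and Egfl7 at 0 against 5. The order of the endothelial totals turned with equal numbers of best peaks, to 33 against 37, and without repeats, to 33 against 34, and the macrophage totals became 13 and 13 with equal numbers. Lymphocyte markers had 3, 4 and 2 of 20. Of 10 markers each, mural cells had 4, 0 and 1, mesothelium 3, 0 and 1, Schwann cells 5, 0 and 0, skeletal muscle 1, 1 and 0, and epithelium 0, 3 and 0. Collagen and matrix genes gave 9, 5 and 4 of 28. Olfactory receptors had 4, 17 and 12 of 1092. The part of other cell types in the differences between the lists was not tested.

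**Figure D5:**
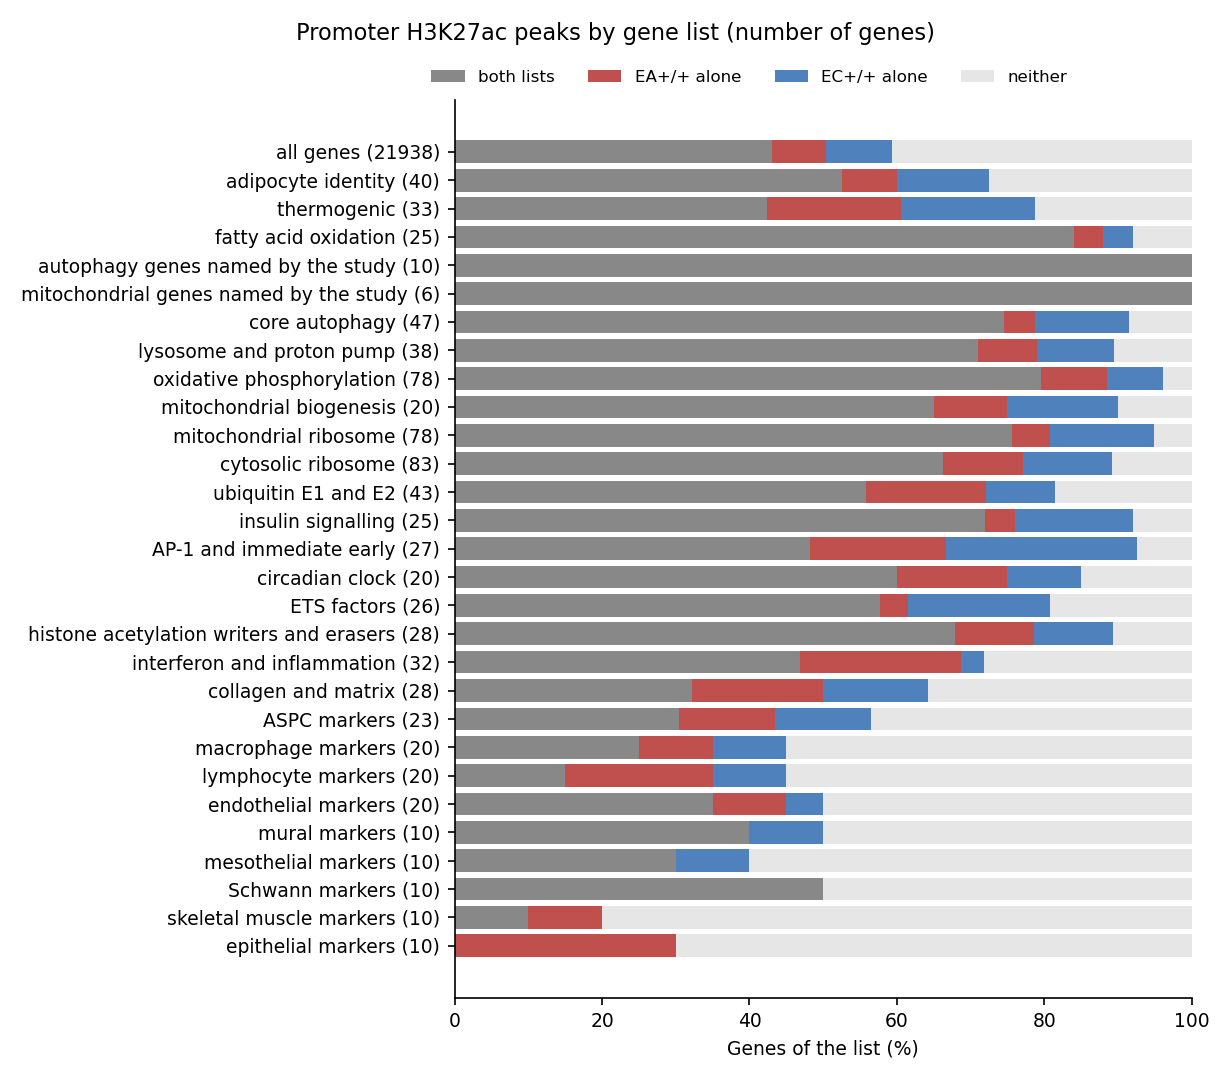
Share of the genes of each list (%) with a promoter H3K27ac peak in both genotypes (grey), in EA+/+ alone (red), in EC+/+ alone (blue) and in neither (light grey), with the number of genes after each name and all 21938 protein-coding genes at the top. Lists differ mainly in the grey share, which runs from 0 of 10 epithelial markers to 10 of 10 autophagy genes named by the study.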

How the data were processed

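The data were the deposited MACS2 peak lists of H3K27ac CUT&Tag from EA+/+ and EC+/+ adipocytes, with the other 7 lists of the series read beside them. The authors aligned reads with BWA to mm10 and called peaks at a q-value under 0.05. SAMtools and deepTools are further tools in the submitters' processing notes. Whether the peak caller had a control, regions of excess signal were removed or mice were pooled is not stated in the sources used here. For each peak the deposited columns give a score, a fold enrichment over local background (a ratio), the −log10 of the p-value, the −log10 of the q-value and the summit. Values depend on depth, which the peak lists do not hold, so −log10 q served to order and select peaks inside a list and was not set against the other list's values as a ratio.

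Overlaps were computed in Python 3.11 with pandas and gave the same counts as bedtools 2.31.1. The code was tested on simulated intervals. TSSs came from GENCODE M21, on the same build, and sequences from the RefSeq release of GRCm38.p6, the letters in lower case taken as repeat-masked. A distal peak went to the nearest protein-coding TSS within 100 kb. Of the symbols in 29 gene lists, 3 were not matched. Genes were named by rank of −log10 q or of the difference in distal peaks (the 6 first in each class, 5 for single distal peaks, up to 4 per list), without predicted genes, besides Ets1, Adipoq, Ucp1, the genes flanking Hipp11 and those the study names. One promoter and one distal peak that these ranks select are not reported here. Other list members were picked after their values were seen. Genes with a common promoter have a common peak. Members and lists were chosen with earlier results of these data known. Promoter windows, overlap, threshold, list size and regions of strong Ets1 signal at room temperature were varied. Leaving out repeat-masked summits was added after seeing the data. With 1 library per group there was no test and no replicate to leave out.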

Additional observations from a re-analysis of the deposited data

How the results depend on the processing

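With 1 library per genotype no result had a test. The alternatives re-cut the same peak lists, so their range shows how values depend on the processing and holds no variation between mice or libraries. Of the values that answer a comparison, 33 kept within their counting interval or within 1.5 times under an alternative, 31 did not. Some of the 33 could not move. The overlap rules do not enter a gene's promoter state, and promoter width does not enter the shares over all peaks. The bound of 1.5 times also kept a rise from 1950 to 2615 genes in EC+/+ alone under the stricter threshold. When each peak had to cover 50% of the other, the share found alone was 72.3% in EA+/+ and 68.4% in EC+/+ over all peaks. It was 48.6% and 50.8% at promoters, and 83.9% and 79.7% at distal sites. When a peak within 500 bp counted as shared it was 56.7% and 50.1%, 24.3% and 26.2%, and 72.5% and 65.45%. With a −log10 q of 5 or more asked in both lists it was 40.9% and 50.4%, 25.4% and 42.3%, and 66.3% and 67.2%, so that EC+/+ then had the larger share in all 3 and the order over all peaks and at distal sites turned. With equal numbers of best peaks the same 3 pairs were 57.25% and 56.9%, 27.6% and 34.3%, and 73.3% and 71.4%. Promoter windows of 3 kb gave 38.2% in both lists. Leaving out repeat-masked summits gave 59.3% and 55.4% over all peaks and 76.5% and 72.0% at distal sites. Genes with at least 3 more distal peaks in EA+/+ fell from 825 to 482 with equal numbers of best peaks. The difference in oxidative phosphorylation genes, EA+/+ alone minus EC+/+ alone, went from 1 to -1 with equal numbers of best peaks. The equal-number shift follows from removing the weakest EA+/+ peaks, and otherwise the cause was not tested. No paired analysis was possible because each genotype had 1 library and no result came from a test.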
